A study of Agaricus bisporus with 16 samples.

Results

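At the first flush, compost colonised by strain 065 BP-8 of the button mushroom Agaricus bisporus was set against compost colonised by strain 245 AMA-7. Both strains grew as mycelium in the same kind of straw and manure compost, spawned on wheat kernels and covered with a casing layer. The 4 libraries compared, 2 per strain, were sampled on day 39 after spawning and were all those of these strains at that stage among the 16 libraries of the series. The other libraries are those of the same strains on day 27, at pinning, when the first mushroom primordia form, and those of the strains 219 30P and A15 on both days. A15 is the commercially grown strain, and the study compared the strains for their ability to use compost components that A15 uses poorly. The labels do not say whether the duplicates came from separate crates, so a p-value here reflects the spread of these samples alone, part of which may be technical.

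The files of both strains list the same 10438 genes as FPKM, a level scaled to gene length and to the mapped fragments of the library. The 8757 genes that averaged 1 FPKM or more in the 4 libraries were tested. Differences are 065 BP-8 minus 245 AMA-7 on the log2(FPKM + 1) scale, which understates the change of low genes, with standard errors (SE) from limma. A gene was called at a Benjamini-Hochberg adjusted p under 0.05 over all genes tested, and a 2-fold call also needed a difference of at least 1 on that scale. The deposited values summed to 887409 and 913010 FPKM in the 065 BP-8 libraries and to 856203 and 860134 FPKM in the 245 AMA-7 libraries. Total read counts are not known. The steps between low values put 1 read in a gene of 1 kilobase at 0.122 to 0.127 FPKM in these libraries. Replicates differed by more than 1.5-fold in 4.28% of the tested genes in 065 BP-8 and in 3.23% in 245 AMA-7, while a library of 065 BP-8 differed that much from one of 245 AMA-7 in 26.2% to 29.1%. The levels are averages over bulk compost, in which fewer cells of a kind and less RNA per cell cannot be told apart.

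A. bisporus feeds on composted straw, whose sugars are locked in lignin. Laccases, which are copper-containing oxidases, and manganese peroxidase are secreted and attack lignin, mostly while the mycelium colonises the compost. At fruiting the fungus turns to cellulose and hemicellulose and sends nutrients into mushrooms, where it also makes a sugar-binding lectin.

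On day 39, 3431 of the 8757 genes tested differed between the strains (39.2%), 1454 higher in 065 BP-8 (16.6%) and 1977 lower (22.6%). The balance between the directions turned with the scaling: 42.4% of the genes called were higher in 065 BP-8 as deposited and 53.6% after median-ratio scaling of the libraries (1759 higher and 1520 lower), where the median difference of all genes was 0.01 in place of -0.07. A 2-fold call was made for 891 genes (10.2% of those tested), 481 of them higher in 065 BP-8 (5.49%) and 410 lower (4.68%), and 888 of the 891 were called the same way after median-ratio scaling. With a pseudocount of 5 in place of 1, 290 genes were at least 2-fold higher and 189 lower. Leaving out any single day 39 library of these strains lowered the number of genes called, in a fit that leaves 1 library in that group. The libraries of the strains did not overlap in 6655 of the genes tested (76%), so that lack of overlap alone marks little here.

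**Figure D1:**
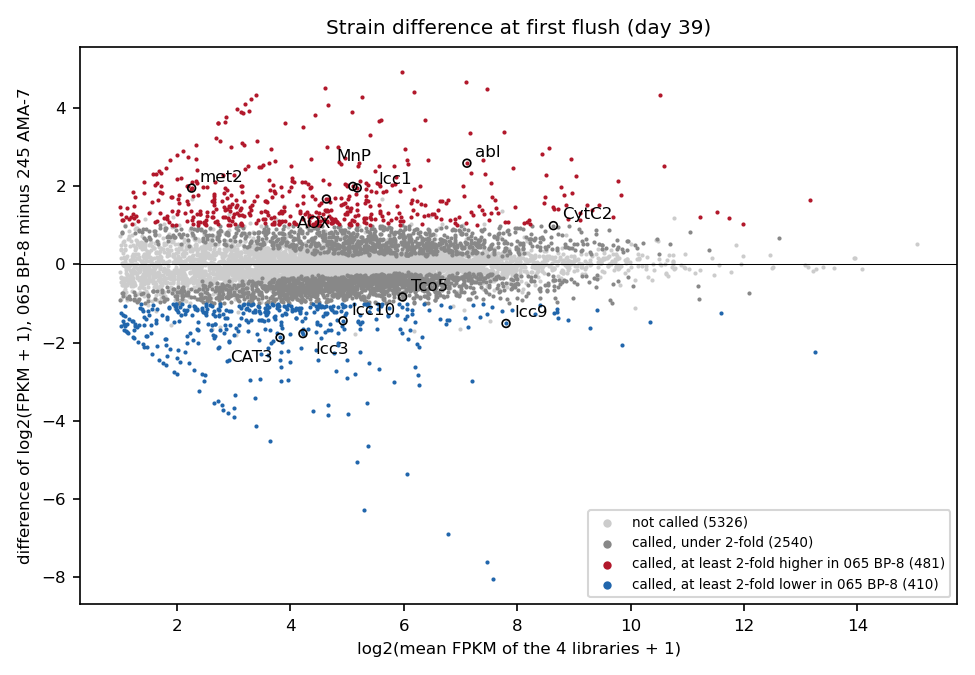
Difference of log2(FPKM + 1) between 065 BP-8 and 245 AMA-7 on day 39 (y axis) against the log2 mean level of the 4 libraries (x axis), 1 point per gene tested, with 11 genes circled by symbol. The 481 red genes were called at least 2-fold higher in 065 BP-8 and the 410 blue genes at least 2-fold lower, and the blue side reaches -8.04 while the red side reaches 4.91.

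Of the 88 genes that carry a symbol in the RefSeq table, 87 were tested, of which 12 were higher in 065 BP-8 and 23 lower. These 35 are 40.2% of the 87, against 39.2% of all genes tested. A 2-fold call was made for 9 of them (10.3%, against 10.2%). The 5 higher genes were abl, MnP, lcc1, met2 and AOX, and the 4 lower ones CAT3, lcc3, lcc9 and lcc10. The remaining 882 genes that differed at least 2-fold have no symbol and can be given by locus tag only.

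The lignin-acting enzymes went both ways. MnP (AGABI2DRAFT_221245), the manganese peroxidase, stood at 42.47 and 65.97 FPKM in 065 BP-8 and at 13.08 and 12.01 FPKM in 245 AMA-7. Both 065 BP-8 libraries lay well above both of 245 AMA-7, a difference of 2.00 ± 0.30 (log2, SE), or 3.99-fold on the FPKM + 1 scale (limma, adjusted p = 0.00078). The laccase gene lcc1 (AGABI2DRAFT_146228) had 49.89 and 63.51 FPKM in 065 BP-8 and 12.86 and 14.73 FPKM in 245 AMA-7. It was higher in 065 BP-8 by 1.96 ± 0.35 (adjusted p = 0.00211), with no overlap, although A15 at this stage had 740.35 and 625.07 FPKM, far above either strain.

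Other laccase genes were lower in 065 BP-8. The gene lcc9 (AGABI2DRAFT_194714) had 99.52 and 132.35 FPKM in 065 BP-8 and 314.77 and 343.83 FPKM in 245 AMA-7, lower by a log2 difference of -1.51 ± 0.30 (adjusted p = 0.00356). Its neighbour in the RefSeq gene order, lcc10 (AGABI2DRAFT_120944), had 14.74 and 16.06 FPKM in 065 BP-8 and 43.34 and 43.77 FPKM in 245 AMA-7. That is a difference of -1.44 ± 0.27 (adjusted p = 0.00261), close in size to that of lcc9. The gene lcc3 (AGABI2DRAFT_184981) was the laccase with the largest deficit, at 7.38 and 7.47 FPKM in 065 BP-8 against 24.58 and 31.28 FPKM in 245 AMA-7. In each of lcc3, lcc9 and lcc10 the libraries of the strains lay apart, and the difference of lcc3 was -1.77 ± 0.17 (adjusted p = 7.02e-05).

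The remaining 2 laccases did not pass the test. The gene lcc2 (AGABI2DRAFT_139148), at 227.91 and 282.74 FPKM in 065 BP-8 and 160.88 and 150.70 FPKM in 245 AMA-7, differed by 0.70 ± 0.31 (adjusted p = 0.0976). It passed when only the libraries of these strains were fitted (adjusted p = 0.00372). For lcc12 (AGABI2DRAFT_184993), 27.57 and 30.28 FPKM in 065 BP-8 stood beside 39.96 and 33.30 FPKM in 245 AMA-7 (-0.33 ± 0.97, adjusted p = 0.816). The SE of lcc12 takes in its day 27 replicates in 065 BP-8, at 658.17 and 33.61 FPKM. Of the 6 laccases 1 was thus higher and 3 lower, with a median difference of -0.88 against -0.07 over all genes tested. Of all genes tested 16.6% were called higher and 22.6% lower. Reads of one laccase gene could have been counted for a similar one, since the counting rules are not stated here, which leaves single laccase levels uncertain.

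Among genes with a symbol abl (AGABI2DRAFT_194888), the lectin gene by its symbol, showed the largest difference. It had 206.98 and 263.84 FPKM in 065 BP-8 and 27.91 and 51.62 FPKM in 245 AMA-7, higher by 2.59 ± 0.32, or 6.02-fold (adjusted p = 0.000263). The lower 065 BP-8 library was still well above the higher 245 AMA-7 library. At the same stage abl stood at 3.87 and 2.60 FPKM in 219 30P and at 217.80 and 107.91 FPKM in A15, so 065 BP-8 was in the range of A15 or above it and 245 AMA-7 in between.

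The gene met2 (AGABI2DRAFT_200636), named for the homoserine acetyltransferase that leads into methionine synthesis, had 4.36 and 8.96 FPKM in 065 BP-8 and 0.60 and 1.23 FPKM in 245 AMA-7. It was higher in 065 BP-8 by 1.95 ± 0.30 (adjusted p = 0.000932), a difference that was 0.95 with a pseudocount of 5 since its level is low. In 219 30P and A15 met2 was higher than in either strain, at 16.61 and 13.56 FPKM and at 24.23 and 39.87 FPKM. The gene hom2, which in baker's yeast encodes an earlier step of the same pathway, stood at 7.47 and 6.04 FPKM in 065 BP-8 and 8.46 and 8.21 FPKM in 245 AMA-7 (-0.27, adjusted p = 0.147).

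The catalase gene CAT3 (AGABI2DRAFT_200291), for an enzyme that breaks down hydrogen peroxide, had 5.08 and 5.05 FPKM in 065 BP-8 and 21.15 and 21.18 FPKM in 245 AMA-7. The replicates of each strain nearly coincided, and the difference was -1.87 ± 0.15, or 3.65-fold lower (adjusted p = 2.35e-05). The other catalase, CAT1, stood at 2.54 and 2.34 FPKM in 065 BP-8 and 3.04 and 3.46 FPKM in 245 AMA-7 (-0.30, adjusted p = 0.159).

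**Figure D2:**
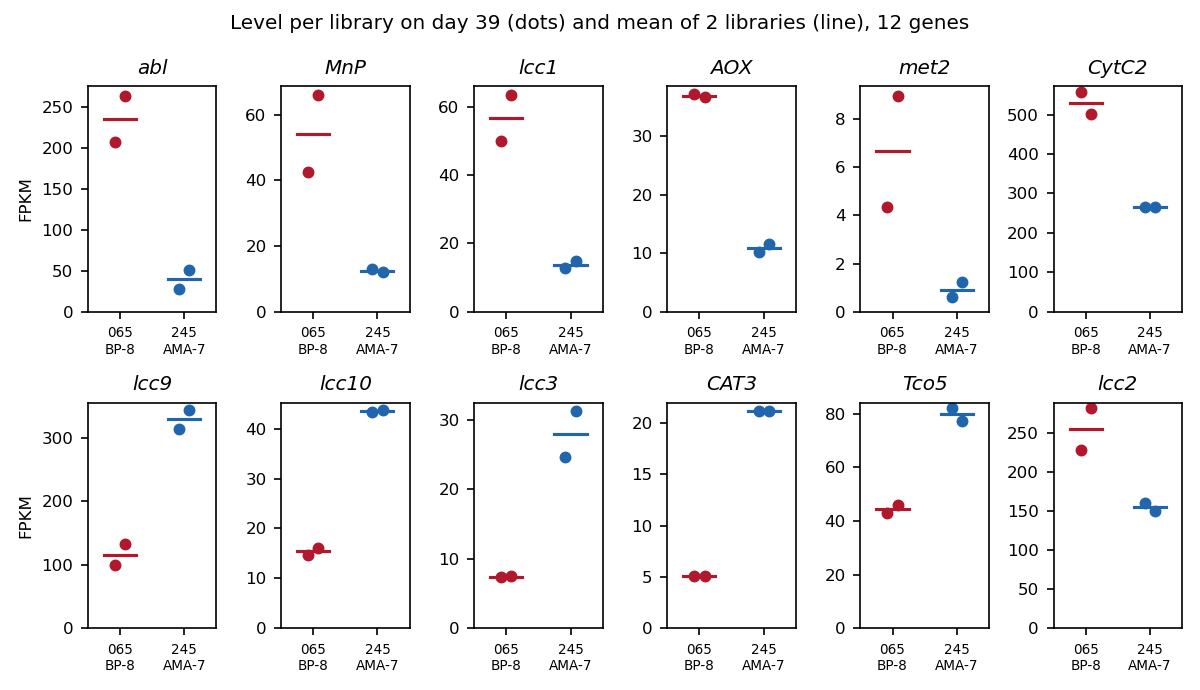
FPKM (y axis, from 0, with its own range in each panel) of 12 genes in each day 39 library of 065 BP-8 (red) and 245 AMA-7 (blue), where dots are libraries and the line is the mean of 2. The libraries of the strains lie apart in each panel, as they did in 76% of all genes tested. The panels show chosen genes, and lcc2 is the only one of these 12 that was not called (limma adjusted p = 0.0976).

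Enzymes of phenylalanine breakdown differed in both directions. PAL1 (AGABI2DRAFT_192776), a phenylalanine ammonia-lyase, had 483.44 and 552.10 FPKM in 065 BP-8 and 649.11 and 764.48 FPKM in 245 AMA-7 (-0.45 ± 0.11, adjusted p = 0.00847). PAL2 (AGABI2DRAFT_192690), named for the same enzyme, had 94.37 and 130.01 FPKM in 065 BP-8 and 52.80 and 65.00 FPKM in 245 AMA-7 (0.91 ± 0.22, adjusted p = 0.00885). PAL1 was lower and PAL2 higher in 065 BP-8, each without overlap. The call of PAL1 was lost without replicate 2 of 245 AMA-7 (adjusted p = 0.0738) or replicate 1 of 065 BP-8 (0.0692), and that of PAL2 without replicate 1 of 245 AMA-7 (0.0741) or replicate 2 of 065 BP-8 (0.074). The cinnamate hydroxylase gene C4H1 was below the level needed for testing, at 0.26 and 1.01 FPKM in 065 BP-8 and 0.95 and 0.39 FPKM in 245 AMA-7.

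Of the respiratory chain, the alternative oxidase gene AOX showed the largest difference. Alternative oxidase passes electrons to oxygen without pumping protons and so bypasses complexes III and IV. AOX had 37.16 and 36.58 FPKM in 065 BP-8 and 10.25 and 11.54 FPKM in 245 AMA-7. The libraries lay far apart, with a difference of 1.67 ± 0.54, or 3.19-fold (adjusted p = 0.0324). This call did not hold with a pseudocount of 5 (1.40, adjusted p = 0.053), with the replicate number as a block (1.67, adjusted p = 0.0505) or without any single day 39 library: adjusted p was 0.134 without replicate 1 and 0.0947 without replicate 2 of 245 AMA-7, and 0.11 without replicate 1 and 0.107 without replicate 2 of 065 BP-8. On day 27 the AOX replicates of 065 BP-8 were 252.07 and 51.46 FPKM, and the fit shares 1 spread over the groups. The NADH dehydrogenases outside complex I did not pass, with NDE1 at 44.40 and 45.03 FPKM in 065 BP-8 and 47.10 and 44.11 FPKM in 245 AMA-7 (-0.03, adjusted p = 0.823), and a difference of 0.03 for NDE2 (adjusted p = 0.89).

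Cytochrome c carries electrons to complex IV. CytC2 (AGABI2DRAFT_135048), a cytochrome c going by the symbol, had 557.92 and 502.22 FPKM in 065 BP-8 and 265.96 and 265.47 FPKM in 245 AMA-7. Both 065 BP-8 libraries lay near 2 times the level of 245 AMA-7, with a difference of 0.99 ± 0.10 (adjusted p = 9.88e-05). In complex IV, COX5B was higher as well, at 96.03 and 94.67 FPKM in 065 BP-8 and 57.97 and 65.67 FPKM in 245 AMA-7 (0.62 ± 0.11, adjusted p = 0.00242). The other 4 genes of complex IV with a symbol did not pass, with differences of -0.15 to 0.14.

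Subunits of complex I differed little and were called about as often as genes in general. Of the 24 complex I genes 9 were called (37.5%, against 39.2% of all genes tested), 2 higher in 065 BP-8 and 7 lower, with a median of -0.01 against -0.07 over all genes. After median-ratio scaling 3 were higher and 5 lower. As deposited, the lower ones were 4 without replicate 1 of 245 AMA-7 or replicate 1 of 065 BP-8, and 5 without replicate 2 of 245 AMA-7. NdufV1, a core subunit, was lower by -0.51 ± 0.09 (91.62 and 85.35 FPKM in 065 BP-8, 130.59 and 122.54 FPKM in 245 AMA-7, adjusted p = 0.0019). NdufS1, also of the core, was lower by -0.44 ± 0.08 (adjusted p = 0.00219), and NdufS6, NdufA8, NdufA11, NdufB8 and NUZM were the other lower genes. N19M (0.64 ± 0.13, adjusted p = 0.00434) and NdufS4 (0.47 ± 0.14, adjusted p = 0.023) were the 2 higher genes, and NdufS4 was not called without replicate 1 (adjusted p = 0.0716) or 2 (0.112) of 245 AMA-7 or replicate 2 of 065 BP-8 (0.142).

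In complex II, SDH1, the flavoprotein that oxidises succinate, was lower at 86.68 and 90.21 FPKM in 065 BP-8 and 118.04 and 124.36 FPKM in 245 AMA-7 (-0.45 ± 0.08, adjusted p = 0.00152). The other 4 genes of this complex did not pass. In complex III QCR1 was lower (-0.30 ± 0.08, adjusted p = 0.0127), a call lost after median-ratio scaling (-0.21, adjusted p = 0.0562) and without any single day 39 library (adjusted p up to 0.07).

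Of the 11 ATP synthase genes 5 were called (45.5%, against 39.2% of all genes), 4 lower in 065 BP-8 and 1 higher, and after median-ratio scaling 2 were lower and 2 higher. As deposited, 1 was lower without replicate 2 of 245 AMA-7 and 2 without any other single day 39 library. Both subunits of the catalytic head were among the 4 lower ones. ATP1, the alpha subunit, had 390.60 and 406.34 FPKM in 065 BP-8 and 494.55 and 568.64 FPKM in 245 AMA-7 (-0.41 ± 0.10, adjusted p = 0.00987). ATP2, the beta subunit, had 458.53 and 406.55 FPKM in 065 BP-8 and 536.63 and 578.78 FPKM in 245 AMA-7 (-0.37 ± 0.10, adjusted p = 0.0185). Neither overlapped between the strains, but ATP2 was not called after median-ratio scaling (-0.28, adjusted p = 0.0567), without replicate 1 (adjusted p = 0.0509) or 2 (0.112) of 245 AMA-7 or without replicate 2 of 065 BP-8 (0.132). ATP1 was not called without replicate 2 of 245 AMA-7 (0.0842) or replicate 1 of 065 BP-8 (0.0596). ATP16, in baker's yeast the delta subunit of the catalytic part, was lower by -0.58 ± 0.11 (adjusted p = 0.00275) and ATP4 was lower too, while ATP20 was higher by 0.47 ± 0.09 (adjusted p = 0.00255).

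Over all 52 genes of complexes I to IV, cytochrome c and ATP synthase, 5 were higher in 065 BP-8, 13 were lower and 34 did not pass, with a median of -0.01 against -0.07 over all genes. The share called was 34.6%, against 39.2% of all genes tested, and the share lower 25%, against 22.6%. The shares, like those of all genes, turned with the scaling: 7 were higher and 8 lower after median-ratio scaling, with a median of 0.07. The largest difference among the 52 was the 0.99 of CytC2. With any single day 39 library left out 7 to 9 were lower and 4 or 5 higher, with the fewest lower when replicate 1 or 2 of 245 AMA-7 or replicate 1 of 065 BP-8 was the one left out.

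**Figure D3:**
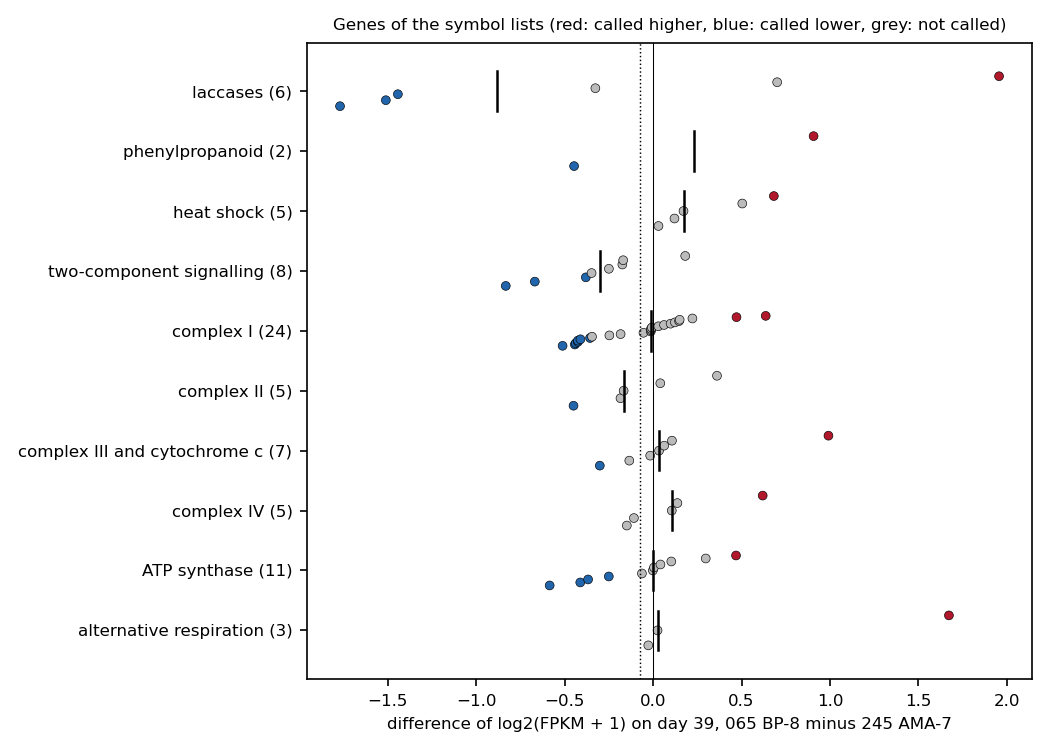
Difference of log2(FPKM + 1) on day 39 between 065 BP-8 and 245 AMA-7 (x axis) for each tested gene of 10 groups formed by gene symbol (rows, number of genes in brackets), with red for genes called higher in 065 BP-8, blue for genes called lower and grey for genes not called. The short black line is the median of a group and the dotted line the median of all genes tested (-0.07); laccases spread from -1.77 to 1.96, while no gene of complexes I to IV or ATP synthase passed 0.99.

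In signalling of the two-component type, histidine kinases hand phosphate to response regulators. Of 8 such genes 3 were lower in 065 BP-8 and 5 did not pass (37.5% called, against 39.2% of all genes tested), with a median of -0.30, although Hpt, a phosphotransfer protein by its symbol, was called higher after median-ratio scaling (0.27, adjusted p = 0.0462). Tco5 (AGABI2DRAFT_143539), a histidine kinase, had 42.84 and 45.94 FPKM in 065 BP-8 and 82.22 and 77.47 FPKM in 245 AMA-7 (-0.83 ± 0.16, adjusted p = 0.00268). Tco1, another histidine kinase, had 46.55 and 48.39 FPKM in 065 BP-8 and 62.54 and 61.61 FPKM in 245 AMA-7 (-0.38 ± 0.08, adjusted p = 0.00508). SSK1, in baker's yeast a response regulator of the osmotic stress pathway, had 67.42 and 62.00 FPKM in 065 BP-8 and 114.33 and 93.46 FPKM in 245 AMA-7 (-0.67 ± 0.15, adjusted p = 0.00594). All 3 lay below without overlap, and the call of SSK1 was lost without replicate 1 of 245 AMA-7 (-0.52, adjusted p = 0.0593).

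Of the 5 heat shock genes, which encode chaperones, hspE was higher in 065 BP-8 and the other 4 did not pass. Of all genes tested 39.2% were called, 16.6% higher. After median-ratio scaling hspC was called higher too (0.26, limma adjusted p = 0.0409, against 0.17 and 0.127 as deposited). The gene hspE had 421.04 and 365.42 FPKM in 065 BP-8 and 241.28 and 246.69 FPKM in 245 AMA-7, with no overlap (0.68 ± 0.14, adjusted p = 0.00374). The most abundant of them, hspB, had 4922.34 and 3776.32 FPKM in 065 BP-8 and 2850.17 and 3240.78 FPKM in 245 AMA-7 (0.50 ± 0.32, adjusted p = 0.235). It passed when only the libraries of these strains were fitted (adjusted p = 0.0383) or when replicate 1 (0.0176) or 2 (0.0173) of 065 BP-8 on day 27 was left out of the shared spread. Fet3, a ferroxidase of iron uptake, was at 183.81 and 197.92 FPKM in 065 BP-8 and 183.90 and 173.24 FPKM in 245 AMA-7, so its libraries overlapped (0.10 ± 0.11, adjusted p = 0.538). The photolyase gene PhrB, for a light-driven DNA repair enzyme, did not pass either (-0.10, adjusted p = 0.613).

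The largest differences of all were deficits of 065 BP-8 in genes without a symbol. AGABI2DRAFT_56609 stood at 0.44 and 0.43 FPKM in 065 BP-8 and at 383.92 and 370.36 FPKM in 245 AMA-7, a difference of -8.04 ± 0.23, or 263-fold (adjusted p = 3.87e-08). AGABI2DRAFT_221381 stood at 0.74 and 0.84 FPKM in 065 BP-8 and at 360.51 and 340.40 FPKM in 245 AMA-7 (-7.62 ± 0.13, adjusted p = 5.4e-10). AGABI2DRAFT_56520 stood at 0.84 and 0.80 FPKM in 065 BP-8 and at 219.06 and 213.76 FPKM in 245 AMA-7 (-6.90 ± 0.33, adjusted p = 6.84e-07). All 3 were thus close to undetected in 065 BP-8 while well expressed in 245 AMA-7, and they were at 103.30 to 240.80 FPKM in 219 30P and at 17.13 to 35.45 FPKM in A15 on the same day.

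These 3 genes kept nearly fixed proportions wherever they were expressed. Over the 12 libraries outside 065 BP-8, the level of AGABI2DRAFT_221381 was 0.78 to 1.07 times that of AGABI2DRAFT_56609, and AGABI2DRAFT_56520 was 0.48 to 0.70 times it. Over those libraries AGABI2DRAFT_56609 itself ranged between 26.15 and 383.92 FPKM. Whether these genes share reads was not tested, which leaves their separate levels uncertain.

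AGABI2DRAFT_56609 and AGABI2DRAFT_56520 are consecutive in the RefSeq gene order and are followed by AGABI2DRAFT_67577 and AGABI2DRAFT_56255, which were also among the 8 largest deficits. AGABI2DRAFT_67577 had 1.52 and 2.91 FPKM in 065 BP-8 and 152.20 and 106.83 FPKM in 245 AMA-7 (-5.36 ± 0.41, adjusted p = 1.74e-05). AGABI2DRAFT_56255 had 1.41 and 3.05 FPKM in 065 BP-8 and 95.60 and 61.70 FPKM in 245 AMA-7 (-4.64 ± 0.43, adjusted p = 5.3e-05). The other strains divided these 4 neighbours: 219 30P and A15 expressed the first pair, but had only 0 to 3.61 FPKM of the second pair. All 4 are short gene models of 192 to 357 bp.

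AGABI2DRAFT_58707 was listed at 0 in both 065 BP-8 libraries and stood at 76.10 and 76.78 FPKM in 245 AMA-7 (adjusted p = 3.87e-08). AGABI2DRAFT_115848 had 0.00 and 0.10 FPKM in 065 BP-8 and 21.83 and 24.11 FPKM in 245 AMA-7 (adjusted p = 1.45e-07). AGABI2DRAFT_191018 had 0.00 and 0.57 FPKM in 065 BP-8 and 12.66 and 126.58 FPKM in 245 AMA-7, with the replicates of 245 AMA-7 far apart (-5.06 ± 0.87, adjusted p = 0.00174). A15 had 515.14 and 417.72 FPKM of AGABI2DRAFT_191018, and 219 30P was listed at 0, so this gene split the strains in pairs. With a pseudocount of 5 the difference of AGABI2DRAFT_191018 was -3.19.

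**Figure D4:**
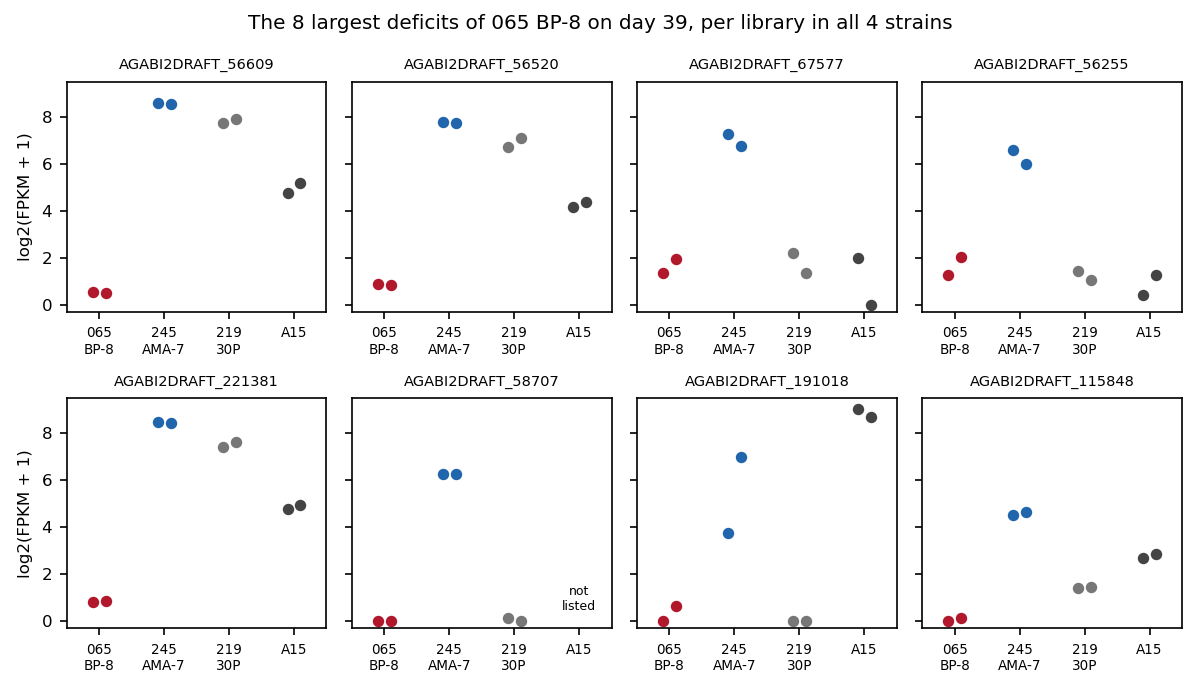
The log2(FPKM + 1) level (y axis) on day 39 of the 8 genes with the largest deficits of 065 BP-8, 1 dot per library, in 065 BP-8 (red), 245 AMA-7 (blue), 219 30P (grey) and A15 (dark grey). AGABI2DRAFT_56609, AGABI2DRAFT_56520 and AGABI2DRAFT_221381 are low in 065 BP-8 alone of the 4 strains, while AGABI2DRAFT_67577 and AGABI2DRAFT_56255 are high in 245 AMA-7 alone; AGABI2DRAFT_58707 is not listed in the A15 files.

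On the other side, AGABI2DRAFT_183721 had the largest excess, with 114.37 and 127.24 FPKM in 065 BP-8 and 2.54 and 3.60 FPKM in 245 AMA-7, a difference of 4.91 ± 0.19, or 30.1-fold (adjusted p = 3.4e-07). AGABI2DRAFT_62215 had 258.03 and 267.84 FPKM in 065 BP-8 and 7.41 and 12.04 FPKM in 245 AMA-7 (4.66 ± 0.38, adjusted p = 2.57e-05). AGABI2DRAFT_195380 had 358.28 and 317.61 FPKM in 065 BP-8 and 14.65 and 13.74 FPKM in 245 AMA-7 (4.48 ± 0.21, adjusted p = 6.2e-07). In each of them 219 30P and A15 lay between the strains, as with AGABI2DRAFT_62215 at 59.97 and 48.30 FPKM in 219 30P and 66.86 and 116.95 FPKM in A15.

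The most strongly expressed of the 8 largest excesses was AGABI2DRAFT_120027, at 2975.31 and 2587.86 FPKM in 065 BP-8 and 104.38 and 181.32 FPKM in 245 AMA-7 (4.32 ± 0.48, adjusted p = 0.000142). AGABI2DRAFT_179521 had 20.64 and 17.61 FPKM in 065 BP-8 and was listed at 0 in both 245 AMA-7 libraries (adjusted p = 1.93e-06). AGABI2DRAFT_147038 (4.52 ± 0.32), AGABI2DRAFT_183657 (4.40 ± 0.25) and AGABI2DRAFT_62584 (4.28 ± 0.29) complete the 8. AGABI2DRAFT_147038 was almost undetected in 245 AMA-7 (0.87 and 1.22 FPKM) and in 219 30P (2.56 and 3.07 FPKM), against 47.73 and 43.54 FPKM in 065 BP-8.

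Genes with all reads in 1 strain were found in both. Listed at 0 in both 065 BP-8 libraries but with a mean of at least 1 FPKM in 245 AMA-7 were 31 genes, of which 20 were also at 0 in both 065 BP-8 libraries of day 27. Listed at 0 in both 245 AMA-7 libraries but with at least 1 FPKM in 065 BP-8 were 18 genes, of which 13 were also at 0 in 245 AMA-7 on day 27. With at least 10 FPKM in the other strain there were 5 such genes at 0 in 065 BP-8, which beside AGABI2DRAFT_58707 were AGABI2DRAFT_121607, AGABI2DRAFT_190240, AGABI2DRAFT_177999 and AGABI2DRAFT_74352, chosen after their values were seen, and 7 at 0 in 245 AMA-7. A gene that is absent from a strain, one whose reads do not match the reference and one that is silent cannot be told apart in these files.

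Part of the genes that differed stood next to each other. Of the genes called at least 2-fold higher, 480 have a place in the RefSeq gene order. On at least 1 side, 114 of them (23.8%) had a gene also called at least 2-fold higher, as did 825 of all 8698 placed genes tested (9.48%). Of the 403 placed genes called at least 2-fold lower, 93 (23.1%) had a gene also called at least 2-fold lower on at least 1 side. The same held for 661 of the 8698 (7.6%). The longest runs had 4 genes. In 1 of them, AGABI2DRAFT_191400 stood at 61.75 and 64.00 FPKM in 065 BP-8 and 3.38 and 3.22 FPKM in 245 AMA-7, and AGABI2DRAFT_134872 beside it at 60.04 and 62.55 FPKM in 065 BP-8 and 9.98 and 9.67 FPKM in 245 AMA-7. A15 was high in both of these genes (95.23 to 114.28 FPKM) and 219 30P low (2.05 to 5.53 FPKM). In another, the strongly expressed AGABI2DRAFT_196181 had 1071.10 and 656.08 FPKM in 065 BP-8 and 123.87 and 134.22 FPKM in 245 AMA-7, and AGABI2DRAFT_147038 closed the run. AGABI2DRAFT_196181 was higher still in 219 30P (1606.36 and 1676.26 FPKM) and in A15 (3335.32 and 2601.59 FPKM). On day 27 the 4 genes of this run differed by -0.31, -1.99, 4.43 and 3.35 in their order, so they did not go the same way at pinning. The gene order is that of the reference assembly, which may not be the one the authors used, and overlapping or related neighbours could share reads.

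Of the 12 most abundant transcripts, singled out after their values were seen, 2 were called, while 39.2% of all genes tested were. AGABI2DRAFT_136569 had 3241.42 and 3589.01 FPKM in 065 BP-8 and 15956.13 and 16137.25 FPKM in 245 AMA-7, 4.7-fold lower (-2.23 ± 0.19, adjusted p = 2.99e-05). AGABI2DRAFT_193057 had 13864.98 and 13867.26 FPKM in 065 BP-8 and 3860.43 and 5005.26 FPKM in 245 AMA-7, 3.15-fold higher (1.66 ± 0.23, adjusted p = 0.000539). The top gene of all 4 libraries, AGABI2DRAFT_136557, took 4.39% and 4.52% of the FPKM sum in 065 BP-8 and 3.29% and 3.24% in 245 AMA-7 (0.52 ± 0.27, adjusted p = 0.154). The other 9 most abundant genes did not pass and differed by -0.17 to 0.17. Among them AGABI2DRAFT_75872 and AGABI2DRAFT_80166, both gene models of 156 bp, had nearly the same level in each library. In 065 BP-8 they stood at 14415.03 and 14276.46 FPKM in replicate 1 and at 19349.66 and 19405.95 FPKM in replicate 2. Whether any of the 12 share reads was not tested, which leaves the number of separate transcripts among them uncertain.

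The same strains were also compared on day 27, at pinning, where a gene that was not called may still have differed. Of the 481 genes at least 2-fold higher in 065 BP-8 on day 39, 243 (50.5%) were called the same way on day 27, 52 the opposite way and 186 were not called. Of the 410 lower genes 266 (64.9%) were called the same way on day 27, 22 the opposite way and 122 were not called. Over all genes tested 4272 were called on day 27 (48.8%), 2307 higher in 065 BP-8 (26.3%) and 1965 lower (22.4%). The difference between the days itself, as an interaction in the same fit, passed for 2943 genes (33.6%), with 1180 above 0 and 1763 below. That balance also turned with the scaling, to 1459 above and 1369 below after median-ratio scaling, and 1938 genes passed without replicate 1 of 245 AMA-7 on day 39. The replicates of 065 BP-8 on day 27 were the least alike, with 12.4% of genes over 1.5-fold apart.

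The lectin gene abl reversed. On day 27 it stood at 4.53 and 8.92 FPKM in 065 BP-8 and at 22.09 and 21.31 FPKM in 245 AMA-7, so that it was lower in 065 BP-8 at pinning (-1.62, adjusted p = 0.00234) and higher at first flush. The strain difference differed between the days by 4.20 ± 0.45 (adjusted p = 0.000351). The gene met2 reversed likewise, with 7.82 and 7.26 FPKM in 065 BP-8 and 21.26 and 13.79 FPKM in 245 AMA-7 on day 27 (interaction 3.04 ± 0.42, adjusted p = 0.000931, or 1.78 with a pseudocount of 5). AGABI2DRAFT_120027 reversed too, with 266.94 and 958.61 FPKM in 065 BP-8 and 1485.74 and 1205.68 FPKM in 245 AMA-7 on day 27 (interaction 5.73 ± 0.67, adjusted p = 0.000462).

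Of the 5 heat shock genes, hspB and hspE passed the interaction test, and hspA, hspC and hspD did not (adjusted p = 0.564, 0.808 and 0.58). On day 27 hspB had 895.52 and 2091.89 FPKM in 065 BP-8 and 10221.04 and 10073.49 FPKM in 245 AMA-7, so it was lower in 065 BP-8 there (-2.89, adjusted p = 8.54e-05), while on day 39 it did not pass (0.50). The interaction was 3.39 (adjusted p = 0.000781). For hspE 297.69 and 409.20 FPKM in 065 BP-8 stood against 542.15 and 599.43 FPKM in 245 AMA-7 on day 27, the opposite of day 39 (interaction 1.39 ± 0.19, adjusted p = 0.000918).

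For all 6 laccases the strain difference lay lower on day 39 than on day 27, and each passed the interaction test as deposited. Of all 8757 genes tested 2943 passed it (33.6%), 1763 of them below 0. The genes lcc9 and lcc10 were not called on day 27, when lcc9 had 49.01 and 39.38 FPKM in 065 BP-8 and 35.43 and 29.84 FPKM in 245 AMA-7 (interactions -1.93 ± 0.42, adjusted p = 0.00739, and -1.90 ± 0.38, adjusted p = 0.00472). Their deficit in 065 BP-8 was thus called on day 39 and not at pinning. The excess of lcc1 was larger on day 27, with 1217.22 and 1073.31 FPKM in 065 BP-8 and 133.49 and 83.50 FPKM in 245 AMA-7. Its interaction (-1.47, adjusted p = 0.0445) and that of lcc2 (-1.28, adjusted p = 0.0458) were lost under most alternatives, among them median-ratio scaling, which left 4 of the 6 laccases. Without any single day 39 library, or without replicate 2 of 245 AMA-7 on day 27, 3 of the 6 passed: lcc3, lcc9 and lcc10. For lcc12 the interaction of -4.32 became -2.19 without replicate 1 of 065 BP-8 on day 27, where it stood at 658.17 FPKM beside 33.61 FPKM in replicate 2. MnP, in contrast, was higher in 065 BP-8 by 2.15 on day 27 and by 2.00 on day 39, and a change between the days was not called (-0.16, adjusted p = 0.794).

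Among the 52 genes of oxidative phosphorylation the interaction passed for 18 (34.6%, against 33.6% of all genes tested), with 17 below 0 and 1, CytC2, above (0.83 ± 0.15, adjusted p = 0.00259). Of all 8757 genes tested 1763 passed below 0 and 1180 above. On day 27, 18 of the 52 were higher in 065 BP-8 (34.6%, against 26.3% of all genes) and 2 lower, where 22.4% of all genes were lower. Of the 24 complex I genes 10 were higher on that day, but 4 without replicate 1 or 2 of 245 AMA-7 or replicate 1 of 065 BP-8 of day 27, and 12 without replicate 2 of 065 BP-8. NdufV1 was higher in 065 BP-8 on day 27 (137.27 and 117.95 FPKM, against 96.30 and 94.40 FPKM in 245 AMA-7) and lower on day 39, an interaction of -0.92 ± 0.13 (adjusted p = 0.000871). After median-ratio scaling 12 of the 52 were below 0 and 1 above. Those below were 11 without replicate 1 or 2 of 245 AMA-7 on day 39, 11 without replicate 2 of 245 AMA-7 or replicate 1 of 065 BP-8 on day 27, and 12 to 20 without any other single library of these strains. The count of the 52 called higher on day 27 was 9 without replicate 1 or 2 of 245 AMA-7 on that day, 10 without replicate 1 of 065 BP-8 and 21 without replicate 2 of 065 BP-8. Tco5 crossed as well: it had 20.19 and 13.61 FPKM in 065 BP-8 and 10.14 and 10.22 FPKM in 245 AMA-7 on day 27, the reverse of day 39 (interaction -1.49 ± 0.22, adjusted p = 0.00126).

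**Figure D5:**
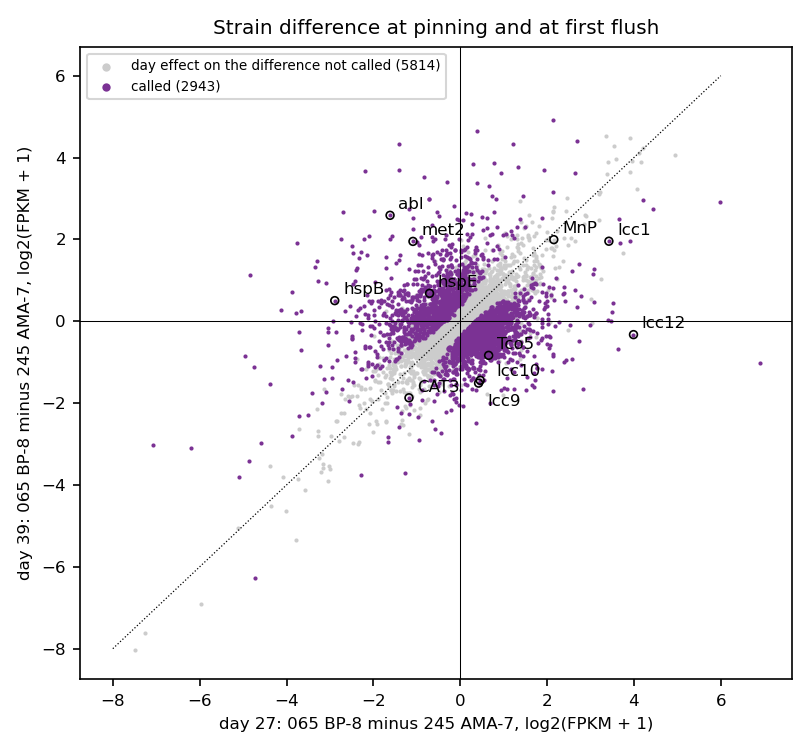
Difference of log2(FPKM + 1) between 065 BP-8 and 245 AMA-7 on day 39 (y axis) against the same difference on day 27 (x axis), 1 point per gene tested, with purple for the 2943 genes whose difference differed between the days (limma interaction, adjusted p under 0.05) and a dotted line of equal differences. MnP lies near that line, abl and met2 lie in the upper left, lower in 065 BP-8 on day 27 and higher on day 39, and lcc9, lcc10 and Tco5 lie in the lower right.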

How the data were processed

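RNA came from duplicate compost samples by caesium chloride gradient and was sequenced from Illumina libraries, per the labels' protocols. BWA, Bowtie and RSEM are named in the submitters' processing notes; of these, versions and roles were not given in the sources used here, and no label or header names a genome build. The authors' deposited values were taken to be FPKM, an inference from their 2 decimals and from sums that differ between libraries. Group and replicate were taken from the sample titles. The A15 files list 9520 genes, so A15 was left out of the fit.

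From the deposited FPKM, log2(FPKM + 1) was fitted with limma 3.58.1 (R 4.3.3; a mean-variance trend, 1 mean for each group, 12 libraries of 3 strains on days 27 and 39, 6 residual and 3.86 prior degrees of freedom, median residual SD 0.14). Genes needed a mean of 1 FPKM over the 4 libraries compared, and p-values were adjusted by Benjamini-Hochberg with a threshold of 0.05. Tables and plots were made with Python 3.11.15, pandas 2.3.3, numpy 2.4.6 and matplotlib 3.10.9. The fit was also run on simulated data with independent normal noise and the spreads of the genes shuffled, which cannot show how it behaves on these libraries. Of the 10438 identifiers 10373 matched locus tags of the RefSeq assembly Agabi_varbisH97_2, used for names, gene lengths and gene order only.

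Named genes, 73 in all, were those called at least 2-fold, without overlap and averaging 10 FPKM in the higher strain (all with a symbol, and the 8 largest differences each way), all members of symbol lists of up to 8 genes, and 4 of each larger list. The gene list members, comparisons and rules were chosen with earlier results of these data known. No protein sequences were used, so lists by protein pattern were not made. Replicate numbers were not used as pairs, since no label ties them to a crate or batch. Alternatives were other pseudocounts, filters and scalings, other sets of libraries, a replicate block and leaving out each library, of which leaving out day 27 libraries was chosen after seeing the data.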

Additional observations from a re-analysis of the deposited data

Results flagged for a closer look

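For 31 of the 73 named genes the strain difference on day 39 differed from that on day 27 (limma interaction, adjusted p under 0.05). The interaction tests the difference itself, and 33.6% of all genes tested passed it. Part of the named genes were picked for a large day 39 difference, which enters the interaction. Their share therefore cannot be set against that of all genes. Each value is the difference between 065 BP-8 and 245 AMA-7 on day 39 minus the same difference on day 27, on the log2(FPKM + 1) scale.

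Above 0, so that 065 BP-8 stood higher relative to 245 AMA-7 at first flush than at pinning, were abl (4.20), the lectin gene, met2 (3.04), of methionine synthesis, hspB (3.39) and hspE (1.39), which encode heat shock proteins, CytC2 (0.83), a cytochrome c, and Hpt (0.38), by its symbol a phosphotransfer protein. Among genes without a symbol these were AGABI2DRAFT_120027 (5.73), AGABI2DRAFT_62215 (4.27), AGABI2DRAFT_179521 (3.12), AGABI2DRAFT_183721 (2.77) and AGABI2DRAFT_183657 (1.70).

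Below 0 were all 6 laccases, with lcc12 (-4.32), lcc9 (-1.93), lcc10 (-1.90), lcc1 (-1.47), lcc2 (-1.28) and lcc3 (-1.23). So were the histidine kinase genes Tco5 (-1.49) and Tco1 (-0.64), the catalase CAT3 (-0.69), PAL1 (-0.72) and AGABI2DRAFT_58707 (-1.55). Subunits of the respiratory chain and ATP synthase below 0 were NdufV1 (-0.92) and NdufS1 (-0.59) of complex I, SDH1 (-0.63) and SDH3 (AGABI2DRAFT_217734, -0.35) of complex II, QCR1 (-0.70) and QCR9 (-0.62) of complex III, and ATP1 (-0.70), ATP20 (-0.59) and ATP2 (-0.45).

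The calls of 8 of these genes were lost under at least 1 alternative. The adjusted p was 0.0521 to 0.144 for lcc1 where it was lost, 0.0534 to 0.149 for lcc2, 0.0692 to 0.095 for lcc12, 0.0565 to 0.104 for CAT3, 0.0607 to 0.145 for Hpt, 0.0522 to 0.128 for ATP2, 0.0516 to 0.122 for SDH3 (AGABI2DRAFT_217734) and 0.0625 for AGABI2DRAFT_58707 with a pseudocount of 0.1.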

How the results depend on the processing

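The count of genes called on day 39 ranged between 3093 and 4015 under the other pseudocounts, filters, scalings, fits and library sets. With a pseudocount of 5 the genes at least 2-fold higher and lower were 290 and 189. Leaving out 1 of the day 39 libraries gave 1949 to 2320 genes called, 909 to 1029 higher, 1040 to 1336 lower, 425 to 452 at least 2-fold higher and 366 to 426 at least 2-fold lower. Leaving out 1 of the day 27 libraries gave 3244 to 3971 called, 1381 to 1685 higher, 1862 to 2286 lower, 478 to 490 at least 2-fold higher and 407 to 422 at least 2-fold lower. The difference between days passed for 1938 to 2338 genes without a day 39 library and for 2135 to 3719 without a day 27 library. A group left with 1 library was assumed to vary like the others.

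With the replicate number as a block 3194 genes were called, 1355 higher and 1839 lower. Replicate numbers were not taken as pairs, since no label ties them to a crate or batch. Deviations of same-numbered replicates correlated by only -0.13 to 0.13 over 15 pairs of groups. Of the 43 named genes called on day 39, 35 were called the same way under every alternative in which they were tested, and AOX, SSK1, NdufS4, QCR1, ATP1, ATP2, PAL1 and PAL2 lost the call under at least 1. None changed sign while called. Part of the named genes were picked for a large day 39 difference without overlap, so their share cannot stand for all genes called. Of the 31 named genes whose strain difference differed between the days, 23 passed under every alternative in which they were tested, and none changed sign. Why these calls moved was not tested. Under the filter of at least 5 FPKM met2 fell out of the test, and with all 16 libraries AGABI2DRAFT_58707 did, since A15 does not list it. With 2 libraries a group and no read counts per gene used here, no counting error could be given for low genes.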

Other observations

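Other runs of 4 neighbouring genes lower in 065 BP-8 were found. In AGABI2DRAFT_44732, AGABI2DRAFT_205695, AGABI2DRAFT_136705 and AGABI2DRAFT_193177 the differences were -1.90, -2.68, -1.66 and -1.76 on day 39, and AGABI2DRAFT_205695 had 13.13 and 10.59 FPKM in 065 BP-8 and 82.54 and 79.47 FPKM in 245 AMA-7. On day 27 the same 4 genes differed by -2.66, -3.28, -2.73 and -3.42. AGABI2DRAFT_139293, at the end of another run, had 336.46 and 378.99 FPKM in 065 BP-8 and 1533.58 and 1430.21 FPKM in 245 AMA-7 on day 39 (-2.05, limma adjusted p = 0.000155), while its day 27 difference was -0.03. These genes were singled out after their values were seen, and none has a symbol.

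Genes that differed at least 2-fold were shorter and lower than genes in general. The median gene length, introns included, was 1255 bp for the genes higher in 065 BP-8 and 1295 bp for those lower, against 1601 bp for all genes tested. The median level in the strain with the higher mean was 27.71 FPKM for the higher genes and 17.00 FPKM for the lower ones, against 33.02 FPKM for all genes tested. The part that length and level play in the calls was not tested.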
